A study of Rattus norvegicus with 49 samples.

Results

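The arrays described here hold thyroid RNA of young male Sprague Dawley rats that received 50 kBq of 131I at 5 weeks of age and were killed 3, 6 or 9 months later. They are the 12 arrays, 4 at each time, whose labels read young and 50 kBq, out of 49 arrays in the series. Each array held 1 thyroid, and the rats were 4, 7 and 10 months old when killed, so time after injection and age cannot be told apart. The times were compared with each other, and the 11 arrays of untreated rats aged 4 (n = 4), 7 (n = 3) and 10 months (n = 4) are given beside the results as the course of age without exposure. The 131I was given in the vein, and the tissue was flash-frozen before RNA was extracted.

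The thyroid concentrates iodide, and 131I, which emits beta particles, is therefore taken up by its follicle cells (thyrocytes). Thyrocytes import iodide through Slc5a5, oxidise it with hydrogen peroxide from Duox2, and store it on thyroglobulin (Tg). C cells, which secrete calcitonin (Calca), lie between the follicles, the parathyroid glands lie beside or within the thyroid, and the laryngeal and tracheal cartilage, skeletal muscle, oesophagus and fat are its neighbours. Collagens, fibrillins and other matrix genes are known to be read most strongly while an animal grows.

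Values are the log2 signal of a probe minus the log2 of the 75th percentile of its array, called log2 signal below. A difference of 1 is a 2-fold difference, and levels of different probes are not compared. Of 30367 probes 22821 were tested, those that 3 or more of the 12 arrays showed well above background; these carried 12173 gene symbols.

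Among the 4 arrays at 3 months, 2 stood apart. Replicate 2 was dim: its 75th percentile of the signal was 61.4, against 787 to 3412 on the other 11 arrays, and 43.1% of its probes were well above background, against 69.2% to 78.8%. Its correlation with the other 11 arrays was 0.718 to 0.786 over the tested probes. On replicate 3 the genes that define the labelled tissue were low. Of 10 thyrocyte markers 9 were tested, 8 of these had their lowest value of the 12 arrays on replicate 3, and the median marker was -7.09 on the log2 scale relative to the mean of the 10 arrays other than replicates 2 and 3. Tg was 0.13 there and 6.81 to 10.93 on the other arrays, and Pax8, a transcription factor that thyrocytes need, was -8.15 against 0.69 to 2.87. Of the 9 tested markers 7 were still well above background on replicate 3. Calca, the marker of C cells, was -7.21 on it and 3.96 to 7.34 elsewhere. Of 6 C cell markers, all tested, 4 had their lowest value on replicate 3 and 4 were well above background there. Their median was -2.78 relative to the same 10 arrays. Of 4 parathyroid markers 1 had its lowest value there, with a median of -5.42. The other 10 arrays correlated at 0.932 to 0.989 with each other. Values are over the 12 arrays unless stated. For most lists of genes and for many genes whose difference depended on these arrays, values without replicate 2 or without replicates 2 and 3, which leaves replicates 1 and 4 at 3 months, are given as well. Among the untreated rats, replicate 2 of 7 months of age had low thyrocyte genes too (Tg -0.70, Pax8 -6.13).

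**Figure D1:**
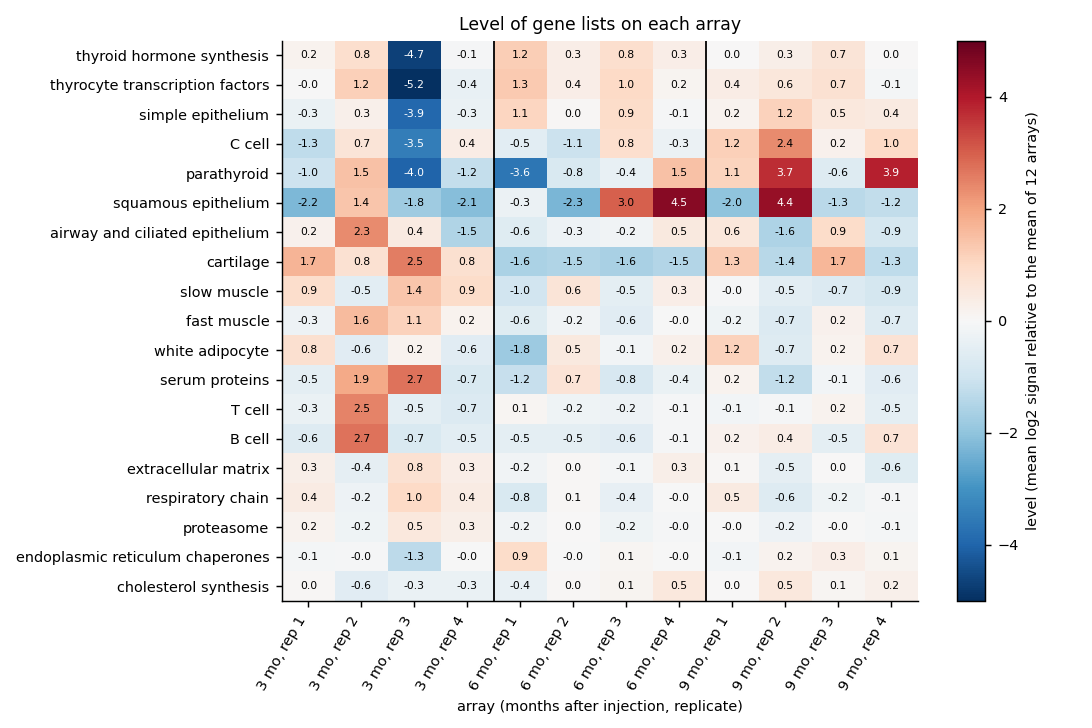
Level of 19 gene lists (rows) on the 12 arrays (columns), as the mean over the genes of a list of the log2 signal minus its mean over the 12 arrays. Thyroid hormone synthesis was at -4.7 on replicate 3 at 3 months, T and B cell genes were high on the dim replicate 2, where 2 of 9 and 2 of 6 of them were well above background, and cartilage, squamous epithelium and parathyroid genes differed between arrays of 1 time.

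No probe passed the cut-offs of an adjusted p under 0.01 and a fold over 1.5 between any of the times. The count was 0 of 22821 probes (0%) at 9 against 3 months, at 6 against 3 months and at 9 against 6 months, by limma with Benjamini-Hochberg adjustment, and the smallest adjusted p was 0.21, 0.233 and 1. An F test among the 3 times called 0 probes as well, with a smallest adjusted p of 0.312. Before adjustment, 4084 probes (17.9%) had a p under 0.05 at 9 against 3 months, 4040 (17.7%) at 6 against 3 months and 246 (1.08%) at 9 against 6 months. With array weights, which count the arrays that differ most from their group for less, 1 probe was called, Tfrc at 9 against 3 months (adjusted p = 0.00675). Without replicate 2 at 3 months the smallest adjusted p at 9 against 3 months was 0.0409, which Tfrc had, and without replicates 2 and 3 the numbers under 0.05 were 3835, 3446 and 1048. With the slide as a block the numbers under 0.05 were 3551, 7841 and 2272, with smallest adjusted p of 0.185, 0.0317 and 0.198, and leaving out each array in turn they were 2243 to 6278, 2115 to 6198 and 101 to 822, in the same order of comparisons. The highest of each came without replicate 2 at 3 months. Time and scan were partly confounded. All arrays at 6 months were of scan 1, replicates 1 and 2 at 3 months of scan 2, and replicates 2 and 3 at 9 months of scan 3. The slides of replicates 1 and 2 at 3 months held no other treated array described here. Time and scan or slide can thus not be fully told apart. The 2 comparisons with 3 months share its arrays and are given side by side, not as support of each other.

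**Figure D2:**
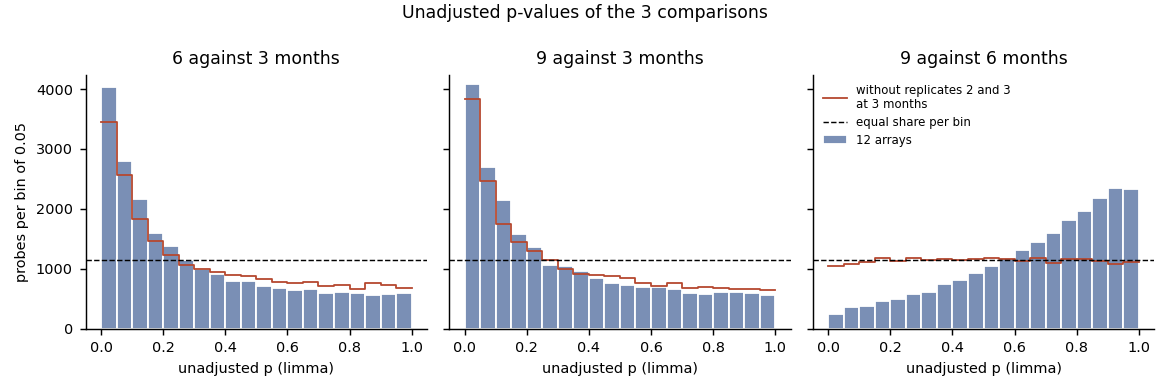
Number of probes (y axis) in each bin of 0.05 of the unadjusted limma p (x axis) for the 3 comparisons, over the 12 arrays (bars) and without replicates 2 and 3 at 3 months (line). In the first bin the bars held 4040 probes at 6 against 3 months, 4084 at 9 against 3 months and 246 at 9 against 6 months, and the line 3446, 3835 and 1048; the dashed line marks an equal share in every bin.

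As a description of separation, groups were also counted as not overlapping when every array of one was above every array of the other. At 9 against 3 months, 937 probes (4.11%) were higher and 1308 (5.73%) lower at 9 months by this rule. At 6 against 3 months, 855 (3.75%) were higher and 1895 (8.3%) lower at 6 months, and at 9 against 6 months 360 (1.58%) were higher and 121 (0.53%) lower at 9 months. Without replicate 2 alone the shares were 10.5% higher and 10.7% lower at 9 against 3 months, and 9.51% and 14.7% at 6 against 3 months. Without replicates 2 and 3 the shares were 15.2% higher and 13.1% lower at 9 against 3 months, and 13.5% and 17.5% at 6 against 3 months, which are the backgrounds for the lists below. The genes named next are those with the smallest unadjusted p among separated probes, and none was called. An exact permutation test of 4 against 4 arrays gives its smallest p, 0.0286, for every separated probe. That p is thus set by the choice of these genes and says nothing more about them.

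The genes that separated most clearly as lower at 9 than at 3 months were Slc16a3, Tfrc, Col3a1, Myod1, Aqp4, Hspa1l, Rbm24, Dusp10, Cfl2 and Wnk2. Their log2 differences lay between -2.50 and -1.16, each with an adjusted p of 0.21. Tfrc, the transferrin receptor that brings iron into cells, was 2.43, 1.63, 2.35 and 2.98 on replicates 1 to 4 at 3 months, 1.44, 1.58, 1.31 and 1.40 at 6 months and 1.06, 0.77, 0.78 and 0.86 at 9 months. All 4 arrays at 9 months were below all 8 earlier ones. The difference at 9 against 3 months was -1.48 (SE 0.26), or -1.84 without replicates 2 and 3, and -0.92 at 6 against 3 months. A second Tfrc probe gave -2.13 at 9 against 3 months. In untreated rats Tfrc was 2.77, 0.99, 1.45 and 2.03 at 4 months of age and 1.40, 1.42, 1.21 and 0.80 at 10 months, which overlap.

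Slc16a3, the lactate exporter of glycolytic cells, was 4.15, 4.85, 4.82 and 4.33 at 3 months, 3.16, 3.46, 3.17 and 3.76 at 6 months and 3.31, 3.20, 3.29 and 3.09 at 9 months. The 3-month arrays were above all later ones, by 1.31 (SE 0.23) over the 9-month mean on the log2 scale and by 1.02 without replicates 2 and 3. Untreated rats were at 3.65 to 4.23 at 4 months of age and 3.38 to 3.67 at 10 months, a narrow overlap. Pfkfb3, which sets the level of the main activator of glycolysis, was -3.83, -1.35, -1.32 and -3.53 at 3 months and -6.71 to -4.89 at 6 months, a difference of -3.20 (SE 0.67) that was -2.02 without replicates 2 and 3. At 9 months it was -6.45 to -4.47. A second Pfkfb3 probe gave -1.24 at 9 against 3 months, where the first gave -2.95.

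Several of these genes are known from skeletal muscle. Myod1, the transcription factor that commits cells to muscle, was 2.14, 2.62, 2.55 and 2.90 at 3 months and 0.51, 0.50, 1.64 and 0.88 at 9 months, a difference of -1.67 (SE 0.31), or -1.63 without replicates 2 and 3. Rbm24, a splicing factor of muscle, differed by -1.44, Cfl2, the muscle cofilin, by -1.36, and Aqp4, a water channel of fast fibres, by -2.50. Without replicates 2 and 3 these were -1.09, -1.02 and -1.63. Another Aqp4 probe gave -1.14. Second probes of Cfl2 and Rbm24 gave smaller differences of -0.29 and -0.55. Beside them, the list of slow muscle genes was at 0.89, -0.53, 1.39 and 0.92 on the 3-month arrays, -0.97 to 0.63 at 6 months and -0.89 to -0.05 at 9 months. The part of muscle in the thyroid samples in these differences was not tested, and in whole tissue fewer cells of a type and less RNA per cell cannot be told apart. The other 3 genes were Hspa1l, a member of the 70 kDa heat shock family (-1.41), Dusp10, a phosphatase of stress-activated kinases (-1.498), and Wnk2, a kinase that regulates ion transport (-1.16).

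The genes that separated most clearly as higher at 9 than at 3 months were Shroom3, Scd2, Dhrs1, Vof16, Vps37d, Klhdc9, Dhrsx, Tmsb15b2, Snx33 and Cchcr1, with differences of 1.08 to 1.98 and an adjusted p of 0.21 each. Shroom3, which organises actin at the apex of epithelial cells, was -3.39, -3.95, -3.43 and -3.43 at 3 months, -1.68, -2.72, -1.54 and -2.04 at 6 months and -1.99, -1.08, -2.15 and -1.80 at 9 months. All 8 later arrays were above the 4 early ones, and the difference at 9 against 3 months was 1.79 (SE 0.32), or 1.65 without replicates 2 and 3. Untreated rats were at -2.96 to -1.33 at 4 months of age and -2.37 to -1.64 at 10 months, which overlap.

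Scd2, a stearoyl-CoA desaturase of lipid synthesis, was 0.43, -0.28, 0.05 and 1.17 at 3 months, 1.74, 1.33, 1.94 and 2.25 at 6 months and 2.25, 2.70, 1.79 and 2.16 at 9 months. The difference at 9 against 3 months was 1.88 (SE 0.34) and 1.42 without replicates 2 and 3. The short-chain dehydrogenases Dhrs1 and Dhrsx differed by 1.25 and 1.35, Vps37d, a subunit of the sorting complex for membrane proteins, by 1.77, Tmsb15b2, an actin-binding thymosin, by 1.51, and the sorting nexin Snx33 by 1.21. A second Snx33 probe gave -0.21. On the dim replicate 2 only Scd2 and Dhrs1 of the 10 genes were well above background, so that for the other 8 the 3-month mean rests on 3 measured arrays.

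**Figure D3:**
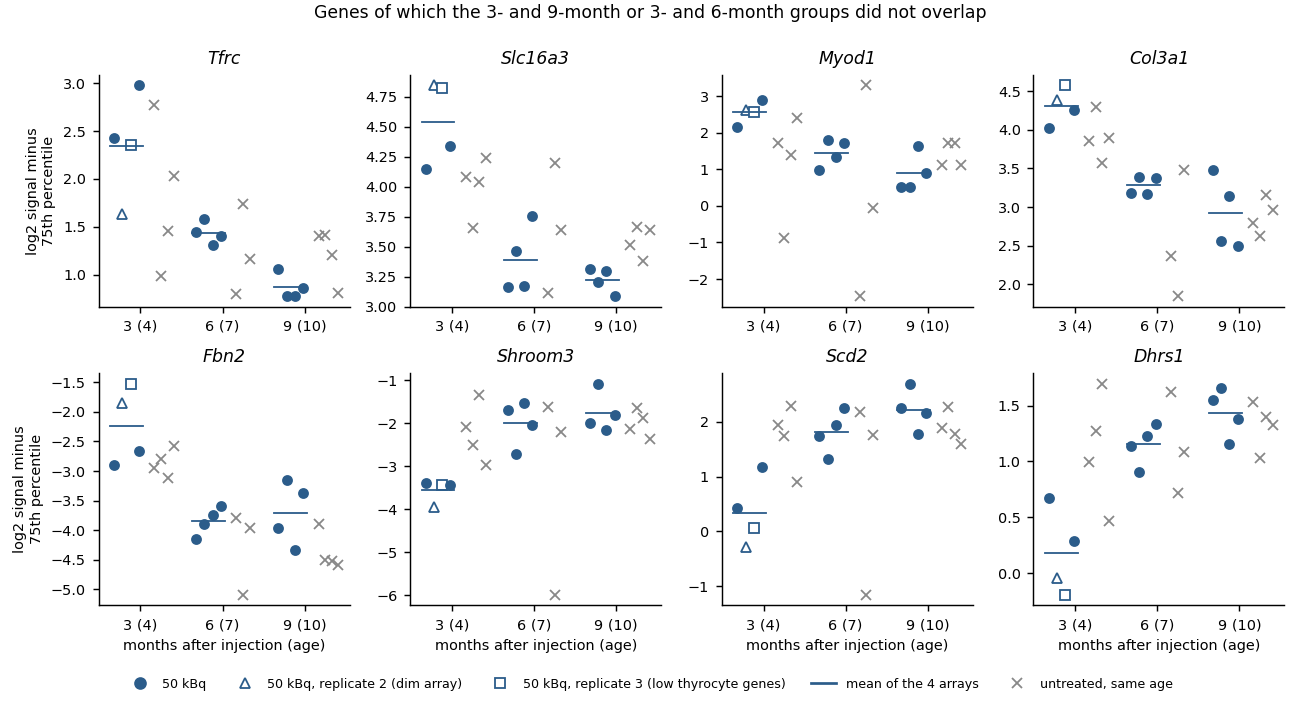
Log2 signal of 8 genes on each array of the 50 kBq rats (blue, bar at the mean of 4) at 3, 6 and 9 months, with untreated rats of the same age in months (in brackets) as crosses. Open triangles and squares mark replicates 2 and 3 at 3 months. The 8 genes were picked because all 4 arrays at 3 months lay outside the range at 6 months (Fbn2) or 9 months (the others). That replicates 1 and 4 at 3 months lay outside it, too, follows from this choice.

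At 6 against 3 months the genes that separated most clearly were Vof16, Sowahc, Shroom3, Eef1a1 and Ssh3 (higher, 1.14 to 1.55) and Slc16a3, Pfkfb3, Fbn2, Aqp4 and Usp2 (lower, -3.20 to -1.15), each with an adjusted p of 0.233. Eef1a1, the elongation factor that brings tRNA to the ribosome, has near-identical copies elsewhere in the genome, so its value of 1.14 is uncertain. Ssh3, a phosphatase that activates cofilin, differed by 1.41. For Aqp4 the probe with the smallest p in this comparison was not the one above, and it gave -1.87.

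At 9 against 6 months the separated genes with the smallest p were Lpcat4, Dusp19, Tmsb15b2, Krtap16-5 and Slc6a17 (higher, 0.73 to 1.45) and Ankrd2, Fcna, Mc5r, Cyp2d5 and Clec4a (lower, -1.44 to -0.86), each with an adjusted p of 1. Ankrd2, an ankyrin repeat protein of stretched muscle, was -2.20, -1.17, -1.24 and -2.26 at 6 months and -2.89, -3.04, -3.47 and -3.24 at 9 months. It was -1.96, -2.40, -1.59 and -0.82 at 3 months, so the 9-month arrays were below all 8 earlier ones. Lpcat4, an acyltransferase of phospholipids, was -5.42, -5.43, -5.74 and -4.96 at 6 months, lower than at 3 months (-4.13 to -3.81) and at 9 months (-4.59 to -3.81). Dusp19, a small phosphatase, had the same order of the times. Fcna, a ficolin of macrophages, and Clec4a, a lectin receptor of myeloid cells, were -0.90 and -0.86, and the list of 12 tested macrophage genes had a median of -0.35 beside them with 0 members separated.

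The list of extracellular matrix genes had a negative median at 9 against 3 months in treated rats and, with age, in untreated ones, and none of its members was called. Of 27 genes 21 were tested; 5 separated as lower at 9 than at 3 months (background 5.73%) and 0 as higher, and the median difference was -0.40, against -0.16 over all probes. With quantile normalization, under which the median of all probes was 0.17, the median of the list was -0.07 at 9 and 0.01 at 6 against 3 months. Without replicate 2 alone 8 of 21 were lower (background 10.7%) with a median of -0.60, and without replicates 2 and 3, 10 of 21 (background 13.1%) with a median of -0.49. Col3a1, a fibrillar collagen, was 4.03, 4.39, 4.58 and 4.26 at 3 months, 3.18, 3.40, 3.17 and 3.38 at 6 months and 3.49, 2.56, 3.15 and 2.49 at 9 months. It did not overlap between 3 months and either later time, and the difference at 9 against 3 months was -1.39 (SE 0.25). In untreated rats Col3a1 was 3.86, 4.30, 3.57 and 3.89 at 4 months of age and 2.79, 2.63, 3.15 and 2.96 at 10 months, a difference of -1.02 without overlap. The interaction, the change with time in treated rats minus that in untreated ones, was -0.37 for Col3a1 (limma adjusted p = 0.70).

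The other chains of fibrillar collagen lay the same way. Col1a2 was 4.83, 5.19, 5.36 and 4.68 at 3 months and 4.31, 3.12, 4.49 and 3.05 at 9 months (-1.27), and Col1a1 differed by -1.71, or -1.83 without replicates 2 and 3. Fbn2, a fibrillin of growing tissue, was -2.89, -1.85, -1.52 and -2.65 at 3 months, -4.15 to -3.59 at 6 months and -4.34 to -3.15 at 9 months, and in untreated rats -3.11 to -2.58 at 4 months of age and -4.59 to -3.90 at 10 months. Mmp2 (a gelatinase) and Postn (periostin), chosen after their values were seen, differed by -0.73 and -0.95 at 9 against 3 months and by -0.83 and -1.23 in untreated rats. Dcn (decorin), the brightest tested member next to Col1a2, was 0.40 higher over the 12 arrays and -0.38 without replicates 2 and 3, since the dim array gave 2.09 where the others gave 3.85 to 5.05. The median of the list in untreated rats was -0.33 at 10 against 4 months of age.

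The respiratory chain and the proteasome had negative medians at both later times in the treated rats, with no member called. Whether a list differed from untreated rats was not tested; for its single members the interaction at 9 against 3 months had a smallest limma adjusted p of 0.607 in both lists. Of 29 respiratory chain genes 25 were tested. At 6 against 3 months 8 of them separated as lower (background 8.3%) and 0 as higher, with a median of -0.66, and the count was 21 of 25 both without replicate 2 alone (background 14.7%) and without replicates 2 and 3 (background 17.5%), with medians of -0.94 and -0.67. At 9 against 3 months it was 2 over the 12 arrays (background 5.73%), 8 without replicate 2 (background 10.7%) and 9 without both (background 13.1%), with medians of -0.54, -0.71 and -0.49. In untreated rats the median was 0.08 at 7 and -0.00 at 10 against 4 months of age. The 0.08 includes replicate 2 of 7 months of age, which had low thyrocyte genes. The list level was -0.78, 0.83 and 0.06 on replicates 1 to 3 of that age, and -0.72 to 0.41 at 4 months of age. Cox6c, a subunit of cytochrome oxidase, was 6.71, 8.10, 7.98 and 6.72 at 3 months, 5.86, 6.40, 6.04 and 6.49 at 6 months and 6.94, 5.82, 6.38 and 6.23 at 9 months. Replicate 1 at 9 months lay above replicates 1 and 4 at 3 months. Atp5f1a, a subunit of ATP synthase, was 6.93, 6.04, 8.06 and 7.16 at 3 months and overlapped with both later times. Ndufs3 of complex I, chosen after its values were seen, was 4.64, 4.66, 5.33 and 4.78 at 3 months and 3.16 to 4.33 at 6 months.

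Of 25 proteasome genes 24 were tested. Over the 12 arrays 3 separated as lower at 9 and 4 at 6 against 3 months (backgrounds 5.73% and 8.3%), none as higher, and the medians were both -0.28. Without replicate 2 alone the counts were 14 and 15 of 24 (backgrounds 10.7% and 14.7%), with medians of -0.44 and -0.46. Without replicates 2 and 3 they were 16 and 18 of 24 (backgrounds 13.1% and 17.5%), with medians of -0.33 and -0.30, against 0.05 and -0.00 over all probes and 0.04 and 0.06 in untreated rats of the same ages. The untreated 0.06 includes replicate 2 of 7 months of age, which had low thyrocyte genes. The list level was -0.37, 0.58 and -0.10 on replicates 1 to 3 of that age, and -0.25 to 0.25 at 4 months of age. Psmc5, an ATPase of the regulatory particle, was 4.90, 5.50, 5.92 and 5.03 at 3 months, 4.52, 4.75, 4.65 and 4.73 at 6 months and 4.69, 4.59, 4.98 and 4.62 at 9 months. Psma6, a ring subunit, was 4.57, 4.57, 5.31 and 4.76 at 3 months and 4.12 to 4.58 at 6 months. These differences were small, and with quantile normalization, under which the median of all probes was 0.17 rather than -0.16, the medians at 9 against 3 months were -0.06 for the respiratory chain and -0.02 for the proteasome.

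Slow muscle genes, which mark fibres rich in mitochondria, had a negative median beside these lists, and their part in them was not tested. Of 11 slow muscle genes 10 were tested; 3 separated as lower at 9 than at 3 months (background 5.73%), and 8 both without replicate 2 alone (background 10.7%) and without replicates 2 and 3 (background 13.1%), with medians of -1.26, -1.71 and -1.46, against 0.35 in untreated rats. Tnnt1, the slow troponin T, was 6.37, 6.60, 7.52 and 6.22 at 3 months, 3.94, 6.21, 4.40 and 5.30 at 6 months and 6.10, 4.32, 4.64 and 4.77 at 9 months. Myh7, the slow myosin heavy chain, was 5.26, 2.97, 6.19 and 5.19 at 3 months and 4.77, 2.96, 3.49 and 3.38 at 9 months. Of 17 tested fast muscle genes 0 separated at 9 against 3 months, and the median went from -1.03 over the 12 arrays to -0.67 without replicate 2 and -0.23 without replicates 2 and 3. The fast troponins Tnnc2 and Tnni2 were 7.31 and 7.42 on replicate 1 at 3 months and 10.83 and 11.30 on the dim replicate 2.

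**Figure D4:**
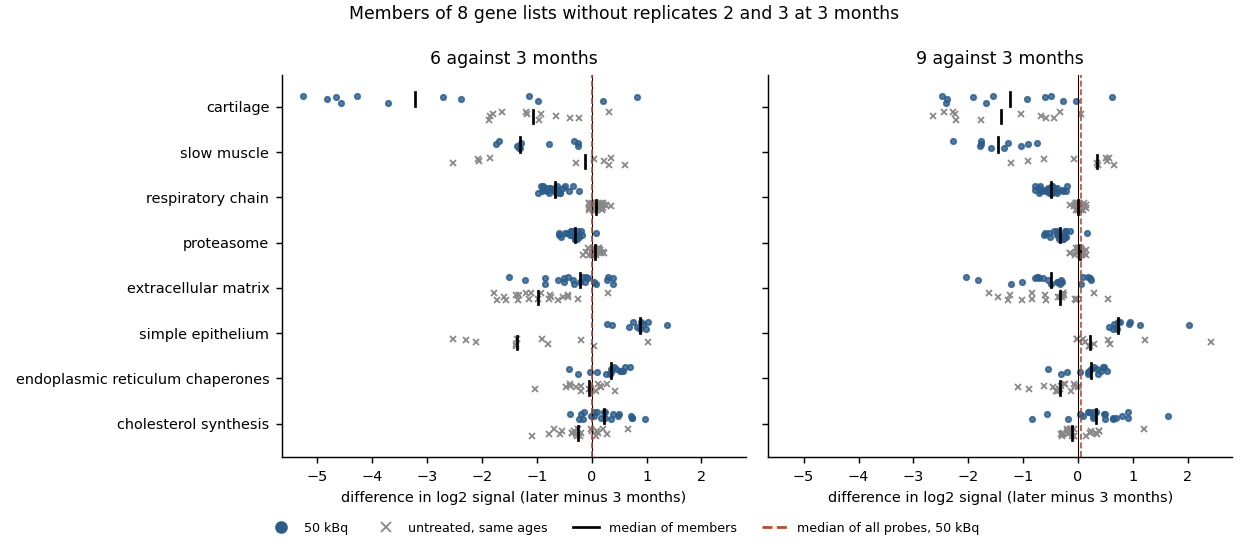
Difference in log2 signal between 6 or 9 and 3 months for each tested member of 8 lists, without replicates 2 and 3 at 3 months (blue points), and between untreated rats of the same ages (grey crosses, which at 7 months of age include the array with low thyrocyte genes). The medians at 9 against 3 months were -0.49 for the respiratory chain and -0.33 for the proteasome in treated rats, against -0.00 and 0.04 in untreated ones, and -0.49 against -0.33 for the extracellular matrix.

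Genes of thyroid hormone synthesis depended on which 3-month arrays were used. All 14 genes had a probe and 13 were tested. Over the 12 arrays the median was 1.32 at 9 and 1.92 at 6 against 3 months, without replicate 2 alone 1.59 and 2.13, and without replicates 2 and 3 it was 0.26 and 0.70. Tg, the protein on which the hormone is made, was 6.90, 10.93, 0.13 and 7.42 at 3 months, 7.17, 7.19, 6.99 and 7.64 at 6 months and 7.43, 6.97, 7.64 and 6.81 at 9 months. Without replicates 2 and 3 its difference was 0.05 at 9 and 0.08 at 6 against 3 months. Without replicates 2 and 3, 6 of 13 members were higher at 6 months (background 13.5%), among them Duox2, the oxidase (0.94 and 0.07 on replicates 1 and 4 at 3 months, 1.11 to 2.27 at 6 months), and 1 of 13 at 9 months (background 15.2%). Slc5a5, the iodide importer, was 1.11 and 0.46 on these arrays at 3 months, 0.87 to 2.36 at 6 months and -0.61 to 1.14 at 9 months, which overlap.

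The list of thyrocyte transcription factors had 4 tested members. Pax8 was 1.12 and 0.69 on replicates 1 and 4 at 3 months, 1.21 to 2.87 at 6 months and 1.30 to 2.19 at 9 months. Without replicates 2 and 3, 3 of the 4 factors were higher at each later time (backgrounds 13.5% at 6 and 15.2% at 9 months). Foxe1 and Hhex, the brightest of them, differed by 0.66 and 0.22 at 9 against 3 months in that fit, and by 0.99 and 0.75 at 6 months. In the simple epithelium list, of keratins and junction proteins, 3 of 11 members separated as higher at 9 and at 6 against 3 months over the 12 arrays (backgrounds 4.11% and 3.75%). The count was 6 of 11 without replicate 2 alone (backgrounds 10.5% and 9.51%, medians 2.35 and 2.18). Without replicates 2 and 3 it was also 6 of 11 (backgrounds 15.2% and 13.5%, medians 0.73 and 0.88). Cldn3, a claudin of tight junctions, was 2.86, 2.57, -3.04 and 3.08 at 3 months, 4.42, 3.61, 4.17 and 3.40 at 6 months and 3.14, 3.94, 4.21 and 3.20 at 9 months. Krt18 differed by 1.27 at 9 against 3 months, and by 0.77 without replicates 2 and 3. Replicates 1 and 4 at 3 months also had higher levels of the slow muscle list (0.89 and 0.92) than all 8 later arrays (-0.97 to 0.63), and the part of this in the lower epithelial signal was not tested.

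Chaperones of the endoplasmic reticulum, which fold thyroglobulin, had medians of 0.62 at 9 and 0.74 at 6 against 3 months. Each time 2 of 15 tested members were higher (backgrounds 4.11% and 3.75%). At 9 months the median was 0.24 without replicates 2 and 3. Hspa5, the main chaperone, was 4.53, 3.18, 3.20 and 4.53 at 3 months and 4.11, 4.72, 4.74 and 4.71 at 9 months. Its difference was 0.71 over the 12 arrays and 0.04 without replicates 2 and 3, and that of Pdia6 was 1.08 and 0.43. In cholesterol synthesis 3 of 21 members were higher (background 4.11%) and 0 lower at 9 against 3 months, with a median of 0.56. Without replicates 2 and 3, 5 of 21 were higher (background 15.2%), with a median of 0.33. The brightest members, Hmgcs1 and Msmo1, differed by 0.21 and 0.73. Lysosomal proteases, which release the hormone from thyroglobulin, had a median of 0.30 with 1 of 8 higher (background 4.11%), and Ctsb and Ctsd differed by -0.07 and -0.19. Among deiodinases, transporters and receptors the median was -0.81 over the 12 arrays and -0.03 without replicates 2 and 3. Dio1, the deiodinase that activates thyroid hormone in the thyroid, was 0.99, 0.42, -7.41 and 0.20 at 3 months and 0.43 to 1.76 at 9 months, and Thra differed by -0.50.

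C cell and parathyroid genes varied between arrays of 1 time. All 14 C cell genes were tested, with a median of 2.47 at 9 against 3 months, 1.77 without replicates 2 and 3, and 2.09 in untreated rats at 10 against 4 months of age. None separated as higher over the 12 arrays, 3 did without replicates 2 and 3 (background 15.2%), and 1 (Calcr, the calcitonin receptor) separated as lower (background 5.73% over the 12 arrays). Calca was 3.96, 6.19, -7.21 and 6.86 at 3 months, 5.79, 4.94, 7.07 and 5.44 at 6 months and 7.24, 7.34, 6.60 and 6.87 at 9 months, so that replicate 4 at 3 months lay within the 9-month range. In untreated rats Calca was 0.89, 6.12, 6.56 and 4.44 at 4 months of age and 7.07 to 7.72 at 10 months. Chga, the granule protein of endocrine cells, was -0.46, 1.26, -6.50 and -0.85 at 3 months, -2.34 to 3.54 at 6 months and -0.04 to 5.33 at 9 months.

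Gcm2, the transcription factor that makes the parathyroid gland, was -6.53, -3.13, -8.13 and -8.85 at 3 months, -9.51, -6.65, -7.12 and -2.24 at 6 months and -3.11, 0.57, -7.61 and 1.00 at 9 months. The -3.13, -8.13, -8.85, -9.51 and -7.61 lay below the lowest signal well above background on their arrays and are only bounds. The high arrays at 9 months were replicates 2 and 4, on which Casr, the calcium receptor, was 5.42 and 5.42 against 2.37 and 0.53 on replicates 1 and 3. The parathyroid list was at 3.70 and 3.90 on these arrays and at -0.64 to 1.11 on the other 2. Its median at 9 against 3 months was 3.33, 4.15 without replicate 2 and 3.48 without replicates 2 and 3. In untreated rats it was -0.60 at 10 against 4 months of age. Pth, the hormone itself, was 5.48 to 6.85 at 9 months and was high on all arrays except replicate 3 at 3 months (-2.95) and replicate 1 at 6 months (-4.61).

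Most cartilage genes were high on replicates 1, 3 and 4 at 3 months, low on all 4 arrays at 6 months and mixed at 9 months. On the dim replicate 2 only 2 of the 12 tested genes were well above background, so that the values of the others there are only bounds. Of 19 genes 12 were tested. Over the 12 arrays 8 separated as lower at 6 than at 3 months (background 8.3%), with a median of -3.34, and 4 were higher at 9 than at 6 months (background 1.58%). At 6 against 3 months 10 of 12 were lower without replicate 2 (background 14.7%, median -3.72). Without replicates 2 and 3 it was also 10 of 12 (background 17.5%, median -3.21). Acan, the aggrecan core protein of cartilage, was -2.93, -4.13, -3.58 and -4.83 at 3 months, -9.56, -8.91, -9.61 and -8.50 at 6 months and -4.08, -9.31, -3.58 and -8.43 at 9 months. At 9 months replicates 1 and 3 were high and replicates 2 and 4 low. Acan was well above background on 3, 0 and 2 of 4 arrays at the 3 times, so its 6-month level is only a bound. Chad, a leucine-rich protein of cartilage, was -0.01, -1.67, 1.95 and -0.90 at 3 months, -5.85 to -4.78 at 6 months and 0.12, -5.26, 0.23 and -4.55 at 9 months, in the same order. The brightest members, Col11a2 and Cytl1, differed by -0.09 and -0.77 at 6 against 3 months. Second probes of these genes gave -0.30 and -2.13. Untreated rats of 4 months of age were also mixed, with Acan between -8.66 and -5.14, and all 4 of 10 months were at -9.82 to -8.33.

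Squamous epithelium genes, such as those of the oesophagus lining, were high on replicates 3 and 4 at 6 months (list level 2.99 and 4.54) and on replicate 2 at 9 months (4.37). On the other arrays the level was -2.28 to 1.38, the highest being the dim array, where 8 of 16 genes were well above background. The median at 9 against 3 months was 1.24, 2.14 without replicate 2 and 2.41 without replicates 2 and 3. In untreated rats it was -2.31 at 10 against 4 months of age. Perp, a junction protein of stratified epithelia, was 3.14 and 4.24 on replicates 3 and 4 at 6 months and 4.16 on replicate 2 at 9 months. Tp63 differed by -0.42 at 9 against 3 months, and by 0.79 by a second probe. That probe was -1.547, 0.125 and 0.008 on the same arrays and -5.715 to -3.913 on the others. Airway epithelium had no separated member among 10 tested over the 12 arrays (medians at 9 against 3 months -0.69, -0.12 without replicate 2 and 0.28 without replicates 2 and 3), and its brightest gene Bpifa1 was 3.66, -2.88, 4.91 and -1.36 at 9 months, high on the arrays with high cartilage. The second brightest, Scgb3a1, was -0.60, -4.57, 2.11 and -5.43, in the same order. White adipocyte genes were lowest on replicate 1 at 6 months (-1.83), where Fasn was 3.06 against 5.72 to 6.27 on the other 6-month arrays, and Scd was 3.20 against 6.40 to 6.85. In the brown adipocyte list Ucp1, the uncoupling protein, was 1.53 on that array and 4.24 to 6.38 on the other 11, and Cox8b differed by -1.24 at 9 against 3 months.

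Lists of immune cells had high levels on the dim array. T cell genes had a level of 2.48 on replicate 2 at 3 months and -0.68 to 0.18 on the other 11, and B cell genes 2.73 against -0.74 to 0.68. Only 2 of 9 T cell and 2 of 6 B cell genes were well above background on the dim array, so most values behind its level of these lists are only bounds. At 9 against 3 months the medians were -0.08 for T cell, -0.07 for B cell, -0.35 for macrophage, 0.07 for MHC class II, -0.12 for mast cell, -0.23 for thymus and 0.12 for interferon-stimulated genes, with 0 members separated as higher in these lists and 1 each as lower in the B cell and thymus lists (background 5.73%). Without replicate 2 the medians were 0.39 for T cell, 0.89 for B cell, -0.20 for macrophage, 0.20 for MHC class II, 0.18 for mast cell, -0.38 for thymus and 0.03 for interferon-stimulated genes, and without replicates 2 and 3 they were 0.47, 0.48, -0.30, 0.22, 0.31, -0.24 and 0.06. The sign thus turned for T cell, B cell and mast cell genes, and without replicates 2 and 3 the T cell list had 2 of 9 and the B cell list 1 of 6 members separated as higher (background 15.2%). Of these, Cd74, the invariant chain that guides MHC class II molecules, was 2.35, 2.68, 2.63 and 2.21 at 3 months and 2.66, 2.52, 2.61 and 1.96 at 9 months. C1qb and Lyz2 of macrophages differed by -0.88 and 0.14, Cma1 and Tpsab1 of mast cells by -0.12 and 0.41, and Mx2 and Stat2 of the interferon response by -0.49 and 0.36. Cd3d and Zap70 of T cells differed by -0.92 and 0.05, or by 0.16 and 0.56 without replicates 2 and 3. Pax5 of B cells differed by -1.28 and Pou2af1 by 0.36, and RT1-Db1 of MHC class II by -0.12. The pair named for thymus, Arpp21 and Cd1d1, differed by -1.75 and -0.23; Arpp21, which muscle also expresses, was 0.72 to 2.37 at 3 months and -0.63 to 0.31 at 9 months.

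Cdkn1a, an inhibitor that stops the cell cycle after DNA damage, was 2.42, 4.90, 3.74 and 2.41 at 3 months, 2.21, 1.92, 2.14 and 2.44 at 6 months and 2.54, 2.14, 2.59 and 1.85 at 9 months. Its difference at 9 against 3 months was -1.09, -0.58 without replicate 2 and -0.14 without replicates 2 and 3. A second Cdkn1a probe gave -0.24 over the 12 arrays and was 1.34 on the dim array. Ccng1, a cyclin induced by DNA damage, lay on separate levels, 2.28 to 3.54 on 9 arrays and -0.67 to 0.48 on replicate 2 at 3 months and replicates 1 and 4 at 9 months. Untreated rats showed both levels too, with 0.14, -1.21, 2.57 and 0.30 at 4 months of age. Among 20 DNA repair genes 1 was higher (background 4.11%) and 3 lower (background 5.73%) at 9 against 3 months. The medians were -0.03, 0.07 without replicate 2 and 0.11 without replicates 2 and 3, and Parp1 and Xrcc1 differed by -0.37 and 0.43. Proliferation genes had a median of 0.09 with 0 of 25 separated over the 12 arrays. Without replicate 2 the median was 0.46, and without replicates 2 and 3 it was 0.38. Each time 3 members were higher (backgrounds 10.5% and 15.2%) and 1 was lower (backgrounds 10.7% and 13.1%). Pcna and Tpx2 differed by 0.41 and 1.21 over the 12 arrays. In the list of senescence genes and cell cycle inhibitors 1 of 11 was lower (background 5.73%). The medians were -0.23, 0.34 without replicate 2 and -0.14 without replicates 2 and 3. Lmnb1 was 8.52 on the dim array against -0.40 to 2.79 on the others. Thyroid cancer drivers had a median of -0.17 with 0 of 17 separated, or -0.05 without replicates 2 and 3.

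Circadian genes were measured at an unstated hour of the day. At 9 against 3 months 1 of 12 clock genes was higher and 2 lower, and 1 of 5 output genes was lower (backgrounds 4.11% higher and 5.73% lower). The medians over the 12 arrays were -0.65 and -0.49. The medians were -0.32 and -0.44 without replicates 2 and 3, and with quantile normalization -0.09 and -0.29. Usp2, an output gene, was 1.36, 2.69, 2.34 and 1.46 at 3 months, 0.26, 0.64, 0.29 and 0.95 at 6 months and 0.89, 0.43, 0.73 and 0.32 at 9 months, and the 3-month arrays were above all later ones. Dbp, an output transcription factor that follows the clock closely, was 2.82, 2.65, 2.31 and 2.11 at 3 months, 1.75, 2.04, 1.65 and 1.73 at 6 months and 2.38, 2.16, 1.70 and 1.72 at 9 months. In untreated rats Dbp was 2.70, 1.61, 2.04 and 2.21 at 4 months of age and 3.57, 3.94, 4.55 and 4.08 at 10 months, so the ages did not overlap there. Its interaction of -2.38 had the smallest adjusted p of the 23709 probes in that fit, 0.415, and no probe was called. Bmal1 was -0.12, -3.68, -0.40 and 0.36 at 3 months and 0.08 to 0.38 at 9 months, against -1.35 to -0.72 in untreated rats of 10 months of age. The -3.68, on the dim replicate 2, was not well above background and is only a bound. Cry1 differed by 0.31 at 9 against 3 months and by -0.10 without replicates 2 and 3.

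Of the further genes chosen by name, Vegfb was on or off rather than graded, and Cd300lg spanned a wide range. The Vegfb probe, for a vascular growth factor, was -9.12, -1.41, 0.13 and 0.11 at 3 months, -9.47, 0.34, -0.20 and 0.06 at 6 months and 0.93, -9.22, -9.35 and -9.55 at 9 months. It was well above background on 3, 3 and 1 of 4 arrays at the 3 times and on 3 of 11 untreated arrays, so the difference of -4.23 at 9 against 3 months (two-sided exact permutation p = 0.40) rests on how many arrays were on. Cd300lg, a receptor of capillary endothelium, was 0.14, -1.60, -1.08 and -6.16 at 3 months, -6.18, -1.38, -1.41 and -5.07 at 6 months and 0.15, -1.04, -2.08 and 0.26 at 9 months, well above background on all 12 arrays. A second Cd300lg probe was lowest on the same arrays at 3 months (-4.54) and 6 months (-4.16 and -3.50) but spanned a smaller range.

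**Figure D5:**
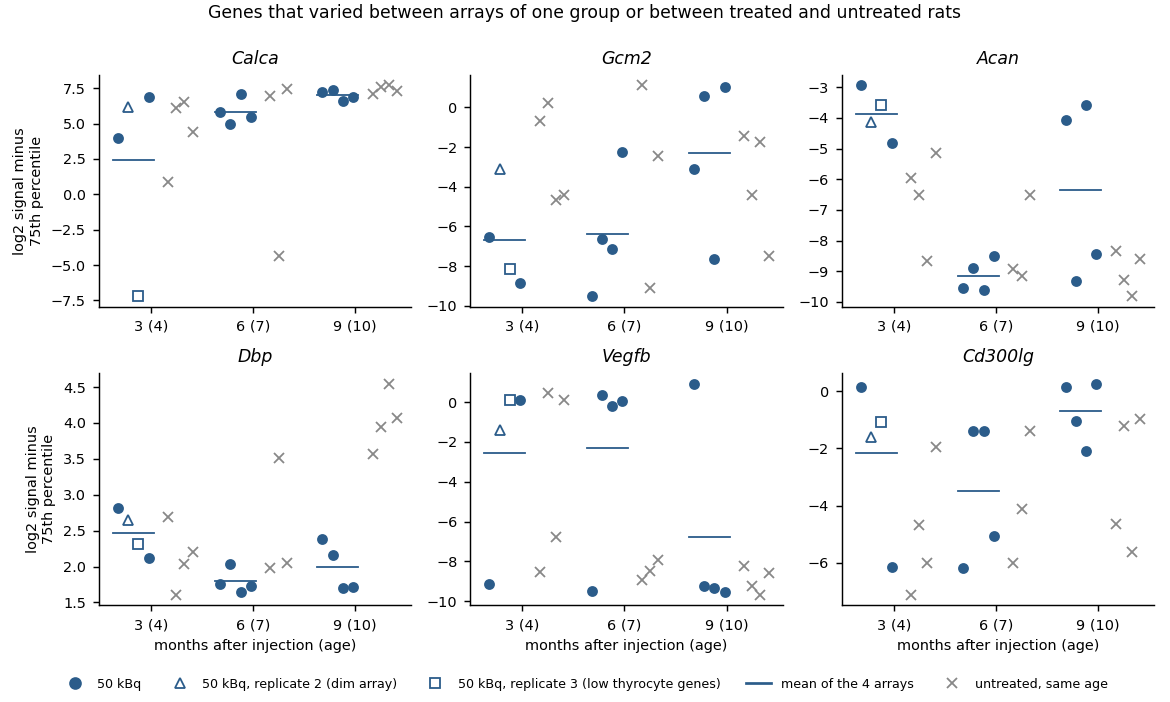
Log2 signal of 6 genes on each array, with symbols as in the plot of named genes. Vegfb lay on separate levels and Cd300lg spanned a wide range within most groups, Gcm2 and Acan were mixed at 9 months, Calca was -7.21 on replicate 3 at 3 months, and Dbp was 3.57 to 4.55 in untreated rats of 10 months of age and 1.70 to 2.38 in treated ones at 9 months.

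Krt7, a keratin of simple epithelia, was -4.94, -3.41, -6.08 and -3.00 at 3 months and -2.34, 0.11, -3.22 and -2.32 at 9 months, a difference of 2.42. On replicates 2 and 3 at 3 months the lowest signals well above background were -2.02 and -5.89, so the -3.41 and -6.08 are only bounds. In untreated rats it differed by 2.43 between the same ages. Slc25a5, the ADP and ATP carrier of mitochondria, was 5.35, 3.55, 5.65 and 5.19 at 3 months, 4.35, 4.92, 4.38 and 4.88 at 6 months and 5.15, 4.26, 4.77 and 4.38 at 9 months; its difference at 9 against 3 months was -0.30, -0.63 without replicates 2 and 3, and 1.24 by a second probe. Dio2, the deiodinase that makes active hormone within cells, was -0.54, -4.03, -1.22 and -3.44 at 3 months and -2.19, -5.58, -3.74 and -2.17 at 9 months (-1.11). The -4.03, on the dim replicate 2, lay below -2.02 and is only a bound. RT1-Bb, a chain of MHC class II, was -0.43 to 0.41 at 3 months and -0.72 to 1.19 at 9 months (0.18), and a second probe differed by 1.26 and was at -9.46 on replicate 2 at 6 months and 0.00 to 0.56 on the other 3. Afp, a fetal serum protein, was not well above background on any of the 12 arrays, so it was not tested; it was well above background on all 4 untreated arrays of 10 months of age and 1 of 4 months.

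The remaining lists had 0 to 2 separated members each at 9 against 3 months over the 12 arrays (backgrounds 4.11% higher and 5.73% lower). Serum protein genes had a median of -1.41 at 9 against 3 months that became -0.90 without replicate 2 and -0.13 without replicates 2 and 3, with 1 of 10 lower; Alb, the main plasma protein, was 0.10 to 1.91 on replicates 1, 3 and 4 at 3 months and 1.26 to 3.10 at 9 months, and Tf differed by -0.89. Heat shock genes had 1 of 10 lower (median -0.30, or -0.23 without replicates 2 and 3), with Cryab and Hspa8 at -0.61 and -0.13. Immediate early genes had 1 of 18 lower (median -0.09); Nr4a1, a nuclear receptor induced within minutes of a stimulus, was 2.67 to 3.21 at 3 months and 0.81 to 2.57 at 9 months, and Jund differed by -0.56. Atf4 target genes had 2 of 17 lower (median -0.02, or 0.18 without replicate 2 and 0.20 without replicates 2 and 3), with Atf4 and Phgdh at 0.11 and 0.78. Antioxidant enzymes had 0 of 22 separated (median 0.08, or -0.06 without replicates 2 and 3), with Gpx4 and Sod1 at -0.89 and -0.57, both high on the dim array. Cytosolic ribosome genes had 0 of 27 (median -0.37, or -0.03 without replicates 2 and 3), with Rplp0 and Rplp2 at -0.77 and -0.62. Growth axis genes had 0 of 15 (median -0.29, or -0.16 without replicates 2 and 3), with H19 and Igf1 at -0.83 and -0.11.

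Over the 12 arrays no member separated among 12 endothelium genes (median 0.21; Kdr and Plvap 0.10 and 0.85), 6 VEGF family genes (-0.07; Vegfa and Pgf -0.14 and 0.53), 6 red blood cell genes (-0.55; Hba-a1 and Hbb-b1 -0.94 and -0.32) and 11 Schwann cell and myelin genes (-0.82; Pmp22 and S100b -0.20 and 1.01) at 9 against 3 months. The white and brown adipocyte lists had 0 of 15 and 0 of 9 separated, with medians of 0.43 and -0.51. Without replicate 2 these medians were 0.27 for endothelium, -0.14 for VEGF, -0.26 for red blood cell, -0.33 for Schwann cell and myelin, 0.24 for white adipocyte and -0.38 for brown adipocyte genes. Without replicates 2 and 3 they were 0.25, 0.10, 0.22, -0.40, 0.32 and 0.09, so that the sign turned for the VEGF, red blood cell and brown adipocyte lists.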

How the data were processed

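Thyroid RNA of single rats was hybridised with Cy3 to Agilent arrays of 1 colour, of the Sureprint G3 Rat GE 8x60K design. The authors deposited 1 Feature Extraction file per array, which holds each spot's intensity after the scanner software took off the background, with no scaling from array to array, and other columns of flags, such as whether a spot stood well above background. A deposited table of the authors' fold changes was not used. Groups were taken from the sample labels. The members and the gene lists were chosen with earlier results of these data known.

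Control and outlier spots were left out, log2 was taken of the processed signal minus that of the 75th percentile of the array, and spots of 1 probe were averaged. Probes that 3 or more of the 12 arrays flagged as well above background were fitted with limma 3.58.1 (R 4.3.3), with 1 mean per time, moderated by eBayes and adjusted by the Benjamini-Hochberg method over all tested probes. A probe was called at an adjusted p under 0.01 and a fold over 1.5. The interaction was fitted with the 11 untreated arrays. Permutation tests were exact and two-sided, over 70 splits. The genes named were called genes or, as none was called, the separated genes with the smallest p. Of these, 10 were taken in each direction at 9 against 3 months and 5 in the other comparisons. The rule also names the 2 brightest members of each of the 44 lists, and 10 further genes, most of which the paper's text names. Some genes that this rule names, and 1 list, are not reported here. One probe per gene, the brightest, stood for a list member. The scripts were tested on simulated data. The number of arrays limits the precision.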

Additional observations from a re-analysis of the deposited data

Results flagged for a closer look

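In 23 of 264 groups of 4 arrays (8.71%) 1 array lay apart from the other 3 by Dixon's criterion, which chance alone meets in about 1 group in 20. Of these, 7 were the dim replicate 2 at 3 months and 5 replicate 3 at 3 months, and no cause was tested.

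On replicate 3 at 3 months the list levels were -4.67 for thyroid hormone synthesis, -3.92 for simple epithelium, -1.32 for endoplasmic reticulum chaperones and -0.26 for thyroid cancer drivers, and Lpcat4 was -3.81. On the dim array, where 2 of 9 T cell and 2 of 6 B cell genes were well above background, the levels were 2.48 for T cell and 2.73 for B cell. They were 1.09 for proliferation (7 of 25 well above background), 0.60 for DNA repair (11 of 20) and 1.38 for squamous epithelium (8 of 16). For senescence genes and cell cycle inhibitors the level was 1.20 (4 of 11), and Shroom3 was -3.95, not well above background. Values that were not well above background are only bounds. On replicate 1 at 6 months immediate early genes were at 0.36, endoplasmic reticulum chaperones at 0.90, Slc6a17 at -5.34 and Vegfb at -9.47. On replicate 4 at 6 months the cytosolic ribosome was at 0.13, Vps37d at -2.98 and Krtap16-5 at -3.09. Squamous epithelium was at 4.37 on replicate 2 at 9 months, Hspa1l at -0.87 and Vegfb at -9.12 on replicate 1 at 3 months, and Vegfb at 0.93 on replicate 1 at 9 months.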

How the results depend on the processing

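With array weights 1 probe was called at 9 against 3 months (Tfrc, log2 difference -1.86, adjusted p = 0.00675); under every other setting run 0 probes were called in the 3 comparisons. Leaving out each array in turn gave 0 to 0 calls, with smallest adjusted p of 0.0409 to 0.501 at 9 against 3 months, 0.0961 to 0.506 at 6 against 3 months and 0.851 to 1 at 9 against 6 months. Directions at 9 against 3 months turned for uncalled genes: Slc25a5 was 0.11 with quantile normalization and 0.47 with the probes of a gene averaged. RT1-Bb was -0.39 with the slide as a block, -0.50 with the scan as a block or in scan 1 alone, and -0.13 without replicate 3 at 9 months (-0.13 to 0.51 over the arrays left out). Dio2 was 0.87 with the slide block and 0.15 with the scan block or in scan 1 alone. The cause was not tested. With the replicate number as a block 0 probes were called, and 3305, 3238 and 252 had an unadjusted p under 0.05; of 12 correlations between same-numbered arrays (-0.76 to 0.19) 3 were above 0.1, so the numbers share only a name. The medians of 19 of the 44 lists kept 1 sign over the settings at 9 against 3 months, and likewise at 6 against 3 months. Array weights are not among these settings, as list medians were not computed with them. Leaving out replicates 2 and 3 at 3 months and using scan 1 alone were chosen after seeing the data. Scan 1 alone leaves replicates 3 (low thyrocyte genes) and 4 at 3 months and replicates 1 and 4 at 9 months. The scan block draws its differences from the same arrays, so these 2 settings are not separate checks. At 3 months the dim signal of replicate 2 limits low probes.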
